A study of Homo sapiens with 8 samples.

Results

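Neprilysin (MME, also known as CD10) is a zinc peptidase anchored in the plasma membrane that cuts small signalling peptides such as the natriuretic peptides, bradykinin, substance P and the enkephalins outside the cell. It belongs to the same metallopeptidase family as the endothelin-converting enzymes ECE1 and ECE2, which make active endothelin from its precursor. Aminopeptidase N (ANPEP, CD13) and dipeptidyl peptidase 4 (DPP4, CD26) trim peptides from the amino end at the cell surface, whereas thimet oligopeptidase (THOP1) and neurolysin (NLN) act on similar short peptides mostly inside the cell. MME-AS1 is a long noncoding RNA gene on the strand opposite to MME. These 8 genes were taken from the 57820 genes of the count table of the series. MME and MME-AS1 were selected on their SP and NSP values in these same libraries, and the other 6 for their relation to neprilysin, with the values known. Their SP and NSP values are therefore given as a description without a p-value.

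The libraries came from J82 cells, a human line established from a bladder cancer, cultured in DMEM with serum and given no drug. Cells were stained with the DNA dye Hoechst and sorted by flow cytometry into side-population (SP) cells, which keep little dye, and non-side population (NSP) cells, and mRNA was sequenced from 4 SP and 4 NSP libraries, numbered 1 to 4 within either gate. The groups share the cell line, the culture and the staining, and differ in the gate. Neither the labels nor the methods say whether the replicates were separate cultures or sorts, so errors and p-values measure the spread between these libraries, which may be technical. All libraries come from 1 line, and in sorted bulk cells fewer expressing cells cannot be told apart from less RNA per cell.

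The SP libraries held 1431823 to 1697218 counts each and the NSP libraries 1489033 to 2073526. These totals are far below the raw reads per sample given in the methods, for a reason that was not tested. Of the 8 genes, 6 had enough counts for a test by edgeR's filter (9309 genes tested), and ANPEP and DPP4 did not. Mitochondrial genes took 3.46% to 7.57% of the counts in SP libraries and 1.65% to 4.01% in NSP libraries. Of 18 urothelial and epithelial markers 5 were tested, and KRT8 and KRT18 were well counted at 3298 ± 485 and 404 ± 69.2 CPM (counts per 1000000) in SP cells (SD, n = 4), while EPCAM held 3 counts and CDH1 24 over the 8 libraries and KRT20, UPK3A and TP63 held 0. KRT7 was lower in SP cells (log2 fold change -1.35, standard error 0.22), with 1 of the 5 tested markers above 0 and 4 below. Of 10 mesenchymal markers 8 were tested, 3 with log2 fold changes above 0 and 5 below, and FN1 (-1.25, standard error 0.17) was the one called. In a fit with the replicate number as a block, VIM (-0.75, standard error 0.13) and SPARC (-0.62, standard error 0.18) were also called lower and TWIST1 (0.98, standard error 0.31) higher. Exons of, among others, KRT7, KRT8, KRT18, CDH1 and VIM cross exons of genes on the other strand. Those crossing VIM held 91643 counts over the 8 libraries, against 5749 for VIM. Of 10 blood cell markers, PTPRC, MS4A1, CD3E, CD2 and HBB were at 0, and the summed level of the list, almost all of it CD14, was 39.0 to 86.1 CPM in SP libraries and 12.1 to 54.6 CPM in NSP libraries. CD14 was higher in the SP library of each of the 4 numbered pairs and was called with the block (log2 fold change 1.01, standard error 0.18), but not without it (0.96, standard error 0.33). The part of these differences in the results on neprilysin was not tested.

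The arrangement of MME and MME-AS1 bears on every value of the pair, and the positions are those of GRCh37, to which hg19 corresponds. MME (ENSG00000196549.6) lies on chromosome 3 from 154741913 to 154901493 on the plus strand, with 9863 bp of exon in 33 blocks. MME-AS1 (ENSG00000240666.1) lies inside that span on the minus strand, from 154876159 to 154901074, with 828 bp in 2 exons. Its first exon, of 214 bp, falls wholly within the last exon of MME, in the 3′ UTR. Its second exon, of 614 bp (154876159 to 154876772), falls in an intron of MME and overlaps 0 bases of MME exon. The first 120 bases of this intronic exon (154876653 to 154876772, minus strand, 5′ to 3′) are shown because spliced MME mRNA does not hold them on either strand, and the whole exon has a GC content of 33.2%.

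MME-AS1 intronic exon: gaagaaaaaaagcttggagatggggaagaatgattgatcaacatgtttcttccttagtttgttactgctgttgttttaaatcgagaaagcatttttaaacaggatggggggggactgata

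**Figure D1:**
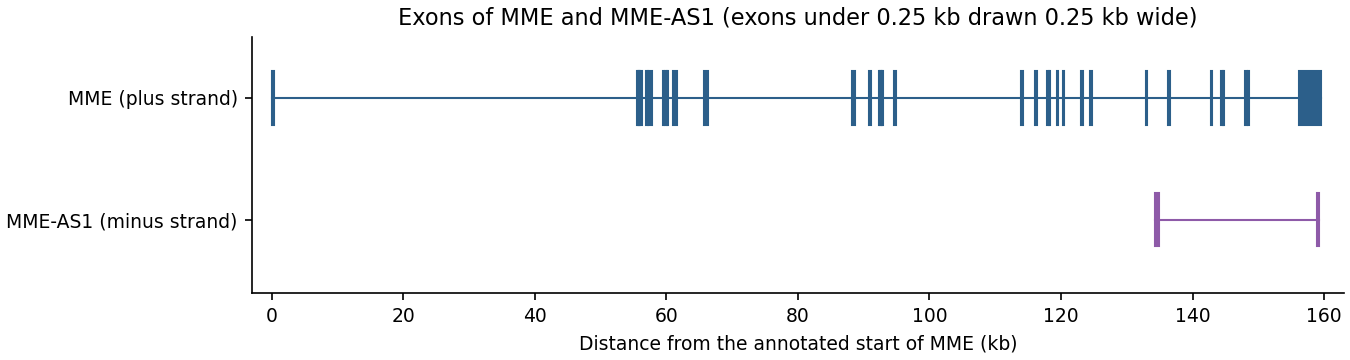
Exons of MME (blue) and MME-AS1 (purple) against the distance in kb from the annotated start of MME, with introns as lines. The first exon of MME-AS1, at the right, lies in the last exon of MME, and its second exon lies in an intron.

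The promoter of MME is shown because MME is the member whose level differed together with that of the RNA on its other strand. The RefSeq table (GRCh38.p14) gives 4 starts for MME. The 250 bases before the one of these farthest upstream, on chromosome 3 from 155079422 to 155079671 on the plus strand, are printed. The GC boxes are in capitals (GGGCGG on either strand, here 2 copies that overlap by 2 bases). In the plot of the exons of MME, which uses GRCh37, the first exon ends at 0.2 kb and the next begins at 55.5 kb. The RefSeq starts were not placed on that plot. The printed window therefore need not be the one before the annotated start drawn there.

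MME promoter: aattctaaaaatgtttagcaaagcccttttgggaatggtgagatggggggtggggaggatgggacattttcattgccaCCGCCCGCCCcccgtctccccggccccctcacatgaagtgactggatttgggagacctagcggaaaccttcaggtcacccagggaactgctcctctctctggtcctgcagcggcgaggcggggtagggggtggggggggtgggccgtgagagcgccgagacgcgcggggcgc

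This window has a GC content of 63.2% and 15 CpG dinucleotides, against medians of 58% and 11 over 35116 RefSeq windows of the same length. A GC box was found in 42.6% of all windows. The CCAAT box (CCAAT, 32% of all windows), the TATA box (TATAAA, 10.7%), the AP-1 motif (TGACTCA, 4.2%) and the forkhead motif (TGTTTAC, 2.98%) were searched on both strands and were not in this window. The windows before the later RefSeq starts of MME, in order, had GC contents of 73.6%, 71.6% and 69.6% and 25, 23 and 17 CpG dinucleotides. They held 2, 2 and 0 GC boxes and 0, 1 and 0 CCAAT boxes. Of the 8 members 6 have windows in the RefSeq table, and none of the windows of MME, ECE1, ANPEP, DPP4, THOP1 and NLN held the TATA box, AP-1 or forkhead letters.

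MME was lower in SP cells than in NSP cells in every library. The counts were 12, 2, 3 and 1 in SP replicates 1 to 4 and 43, 34, 16 and 20 in NSP replicates 1 to 4. In CPM these were 8.65, 1.34, 1.62 and 0.736 for SP and 22.9, 16.8, 10.2 and 13.8 for NSP. SP replicate 1 stood above the other SP libraries, but the groups did not overlap. The means were 3.09 ± 3.72 CPM for SP and 15.9 ± 5.36 CPM for NSP (SD, n = 4). The log2 fold change was -2.40 (standard error 0.50), which is 5.28-fold lower in SP cells with a 95% interval of 2.52 to 11.0. Without SP replicate 1 the log2 fold change was -3.58. The SP value rests on 18 counts in all, and the NSP value on 113.

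MME-AS1 differed by a similar amount from more counts. Its level was 28.8, 19.4, 14.6 and 18.4 CPM in SP replicates 1 to 4 and 185, 103, 72.7 and 88.5 CPM in NSP replicates 1 to 4. The lowest NSP library thus stood well above the highest SP library, and NSP replicate 1 was the highest of its group, as it was for MME. The means were 20.3 ± 6.03 CPM and 112 ± 49.8 CPM (SD, n = 4 each), from 121 and 797 counts. The log2 fold change was -2.48 (standard error 0.29), or 5.57-fold lower in SP cells with a 95% interval of 3.64 to 8.54, and it stayed between -2.69 and -2.13 with single libraries left out. Between libraries of the same replicate number the NSP level was 6.40, 5.29, 4.97 and 4.81 times the SP level for numbers 1 to 4, whereas for MME these ratios were 2.65, 12.5, 6.28 and 18.8. The pairs of MME-AS1 lay close together and those of MME, with 1 to 12 SP counts each, far apart.

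Among the 6 tested members 2 were called lower in SP cells by edgeR's quasi-likelihood test (fold change over 1.3 at an adjusted p under 0.05), where 2.03% of all tested genes were. The SP libraries were all below the NSP libraries for the same 2 members and for 4.97% of all tested genes. Both shares hold the contrast that selected MME and MME-AS1, so nothing is read from them. By log2 fold change MME-AS1 ranked 3 and MME ranked 4 from the lowest of the 9309 tested genes. These ranks hold the same contrast, so nothing is read from them either. Without SP replicate 2 the log2 fold change of MME was -2.17 and MME was not among the called genes.

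**Figure D2:**
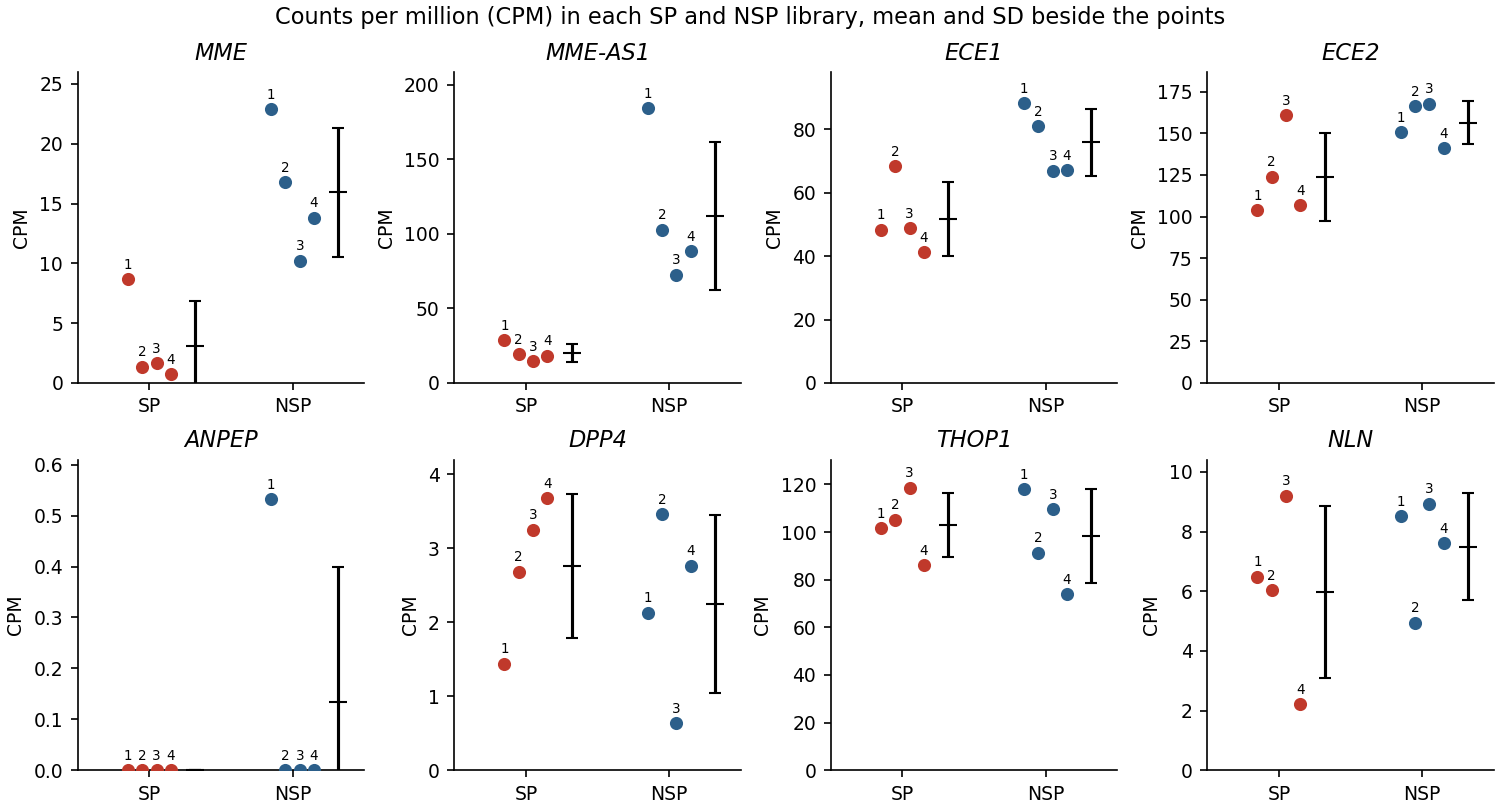
Level of each member in CPM (vertical axis from 0) in the SP (red) and NSP (blue) libraries, with replicate numbers above the points and the mean and SD (n = 4) beside them, the bars being limited at 0. The SP points of MME and MME-AS1 lie below all NSP points, and those of the other members overlap them, for ECE1 and ECE2 by 1 SP library.

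The share of MME in the counts of the pair varied more among SP than among NSP libraries. MME held 23.1%, 6.45%, 10% and 3.85% of the counts of the pair in SP replicates 1 to 4, and 11.0%, 14.0%, 12.3% and 13.5% in NSP replicates 1 to 4. Over all SP libraries the share was 12.9% (18 of 139 counts, exact 95% interval 7.86% to 19.7%), and over all NSP libraries it was 12.4% (113 of 910 counts, 10.3% to 14.7%). The pooled SP share rests on SP replicate 1, which held 12 of the 18 MME counts. Without it the share was 6.90% (6 of 87 counts, 2.57% to 14.4%), a check chosen after seeing the data. The NSP shares lay within each other's intervals, and the SP shares, from 26 to 52 counts each, spread more widely around them. The intervals cover counting error only. Added up as 1 gene, MME and MME-AS1 gave a log2 fold change of -2.47 (standard error 0.30).

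**Figure D3:**
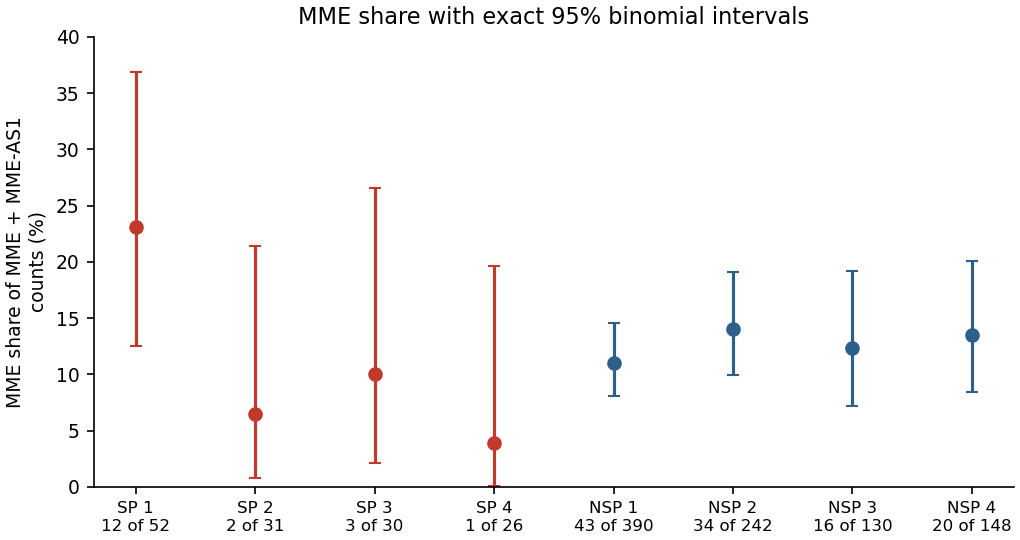
Share of MME in the counts of MME and MME-AS1 together, in percent, for each SP (red) and NSP (blue) library, with exact 95% binomial intervals and the counts under each name. The NSP shares lie between 11.0% and 14.0%, and the SP shares between 3.85% and 23.1% with wide intervals.

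Per length of exon the antisense gene was far above the coding gene. Over the 8 libraries MME-AS1 had 1109 counts per kb and MME 13.3 counts per kb. Whether reads were counted by strand is not given in the sources used here, and lncRNAs above the coding gene they cross were common in this table. Where the exons of a lncRNA and of an opposite protein-coding gene crossed by at least 100 bp and the pair had at least 100 counts, the lncRNA had more counts per kb in 1221 of 1668 pairs (73.2%). From which strand the reads came was not tested for any gene, so the level of MME-AS1 may not be that of an antisense transcript. The levels of MME and the other genes carry the same limit. Among the other members, ECE1 crosses ECE1-AS1 by 240 bp and DPP4 crosses DPP4-DT by 174 bp on the other strand. ECE1-AS1 held 8 counts against 847 for ECE1 (3.10 and 116 counts per kb), and DPP4-DT held 30 against 33 for DPP4 (17.9 and 2.29 counts per kb). ECE2, ANPEP, THOP1 and NLN have no annotated exon across theirs on the other strand.

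The endothelin-converting enzymes were both below the NSP mean in SP cells by less than MME was. ECE1 (chromosome 1, 21543740 to 21672065, minus strand) had 48.3, 68.4, 48.7 and 41.2 CPM in SP replicates 1 to 4 and 88.3, 81.0, 67.0 and 67.1 CPM in NSP replicates 1 to 4. Only SP replicate 2 reached the range of the NSP libraries, and the SP library was the lower in each of the 4 numbered pairs, by 1.18 to 1.83 times. The means were 51.6 ± 11.7 CPM and 75.8 ± 10.6 CPM (SD, n = 4 each), and the log2 fold change was -0.56 (standard error 0.19, 95% interval -0.95 to -0.16). ECE1 did not pass the threshold over all genes, but it did when the model held a replicate block (log2 fold change -0.56, standard error 0.16), which then called 3 members lower where 7.00% of all tested genes were called lower.

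ECE2 (chromosome 3, 183993799 to 184010819, plus strand) was the best counted member. It had 104, 124, 161 and 107 CPM in SP replicates 1 to 4 and 151, 166, 168 and 141 CPM in NSP replicates 1 to 4. SP replicate 3 lay inside the NSP range and the other 3 below it, and in each of the 4 numbered pairs the SP library was the lower, by 1.04 to 1.45 times. The means were 124 ± 26.2 CPM and 156 ± 12.9 CPM (SD, n = 4 each), with a log2 fold change of -0.33 (standard error 0.16, 95% interval -0.68 to 0.02). The interval spans 0, and the threshold was not passed. The annotation also holds a readthrough gene on the same strand, EEF1AKMT4-ECE2, which shares 2965 bp of exon with ECE2 and has no row of its own in the table, so its reads cannot be told apart from those of ECE2.

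The 2 surface peptidases of other families were barely counted. ANPEP (chromosome 15, 90328126 to 90358633, minus strand) had 0 of 6071612 counts in the SP libraries, which allows a level of up to 0.494 CPM, and 1 count in NSP replicate 1. DPP4 (chromosome 2, 162848755 to 162930904, minus strand) had 2, 4, 6 and 5 counts in SP replicates 1 to 4 and 4, 7, 1 and 4 counts in NSP replicates 1 to 4. The groups of DPP4 overlapped, at 2.76 ± 0.97 CPM (SP) and 2.25 ± 1.20 CPM (NSP; SD, n = 4). In a fit without the filter on low counts DPP4 had a log2 fold change of 0.25 (standard error 0.62, 95% interval -0.97 to 1.47), and the interval spans 0. The label of cell surface peptidases therefore fits only part of the genes with counts in these cells, since THOP1 and NLN are known mainly from inside the cell.

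The intracellular oligopeptidases had similar levels in both groups. THOP1 (chromosome 19, 2785501 to 2815805, plus strand) had 102, 105, 119 and 86.1 CPM in SP replicates 1 to 4 and 118, 91.4, 110 and 74.0 CPM in NSP replicates 1 to 4. The groups covered nearly the same range, and the log2 fold change was 0.07 (standard error 0.17) with a 95% interval of -0.30 to 0.44. NLN (chromosome 5, 65018032 to 65167553, plus strand) had 9, 9, 17 and 3 counts in SP replicates 1 to 4 and 16, 10, 14 and 11 counts in NSP replicates 1 to 4. Its log2 fold change of -0.27 (standard error 0.38) has a 95% interval of -1.07 to 0.54, so a change of up to 2.10-fold lower in SP cells is within its error. Neither gene passed the threshold.

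Levels between the members were compared per kb of exon, in CPM per kb. In NSP cells MME-AS1 was highest at 135 ± 60.2, followed by ECE2 at 33.1 ± 2.73, THOP1 at 13.2 ± 2.65, ECE1 at 10.4 ± 1.45, MME at 1.61 ± 0.54, NLN at 0.685 ± 0.16, DPP4 at 0.156 ± 0.08 and ANPEP at 0.026 ± 0.05 (SD, n = 4). In SP cells the order was ECE2 at 26.2 ± 5.54, MME-AS1 at 24.5 ± 7.29, THOP1 at 13.9 ± 1.80, ECE1 at 7.07 ± 1.60, NLN at 0.547 ± 0.26, MME at 0.313 ± 0.38, DPP4 at 0.191 ± 0.07 and ANPEP at 0. Neighbours in these orders that differed by less than the sum of their SDs were THOP1 and ECE1, and DPP4 and ANPEP, in NSP cells, and ECE2 and MME-AS1, NLN and MME, and MME and DPP4 in SP cells. The exon lengths are those of a later annotation than the one used for counting. MME-AS1 shares 214 of its 828 bp with an exon of MME. As the strand of the reads was not tested, these orders may not be those of the named transcripts.

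The other peptidases that act on such peptides were taken from 5 lists by enzyme family. Of 53 that are not members, 43 had at least 1 count and 28 were tested. None of the 28 was called by edgeR's quasi-likelihood test, with 2 at an unadjusted p under 0.05, and 0 were called by DESeq2, limma voom or with the replicate block. Their median log2 fold change was -0.08, against 0.01 over all tested genes, with 18 below 0 and 10 above.

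Within the neprilysin family of 7 genes, MMEL1, the closest relative of MME, was at 107 ± 17.8 CPM (SP) and 109 ± 10.1 CPM (NSP; SD, n = 4; log2 fold change -0.02, standard error 0.16). ECEL1 had 0 counts, KEL 1 and PHEX 3. The M1 aminopeptidases ran from LTA4H, which makes leukotriene B4 (log2 fold change -0.36, standard error 0.36), to RNPEPL1 (0.22, standard error 0.22). ERAP1, which trims peptides for MHC class I in the endoplasmic reticulum, had the highest level of that list, 403 ± 30.9 CPM (SP) and 399 ± 39.7 CPM (NSP; SD, n = 4; log2 fold change 0.01, standard error 0.14). Exons of MMEL1, LTA4H, RNPEPL1 and ERAP1, and of APEH, MIPEP, NAALADL1 and CTSA below, cross exons on the other strand. For MMEL1 the partner is PRXL2B, over 451 bp, with 339 counts against 1405 for MMEL1. As the strand of the reads was not tested, these levels may not be those of the named genes. Of the DPP4 relatives and prolyl peptidases, all 6 tested genes had log2 fold changes below 0, from -0.55 for DPP8 (standard error 0.28) to -0.03 for APEH (standard error 0.20), and the fibroblast surface peptidase FAP was at 0 counts. DPP7 was the best counted of them, at 97.1 ± 25.6 CPM (SP) and 98.7 ± 35.4 CPM (NSP; SD, n = 4). MIPEP, the mitochondrial relative of THOP1 and NLN, had a log2 fold change of -0.32 (standard error 0.40). In the remaining list the ends were NAALADL1 (log2 fold change -0.63, standard error 0.28, adjusted p = 0.271 by edgeR's quasi-likelihood test) and the prohormone-processing carboxypeptidase CPE (log2 fold change 0.75, standard error 0.35, adjusted p = 0.297 by the same test). The lysosomal CTSA had the highest level, 245 ± 93.2 CPM (SP) and 266 ± 57.8 CPM (NSP; SD, n = 4).

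**Figure D4:**
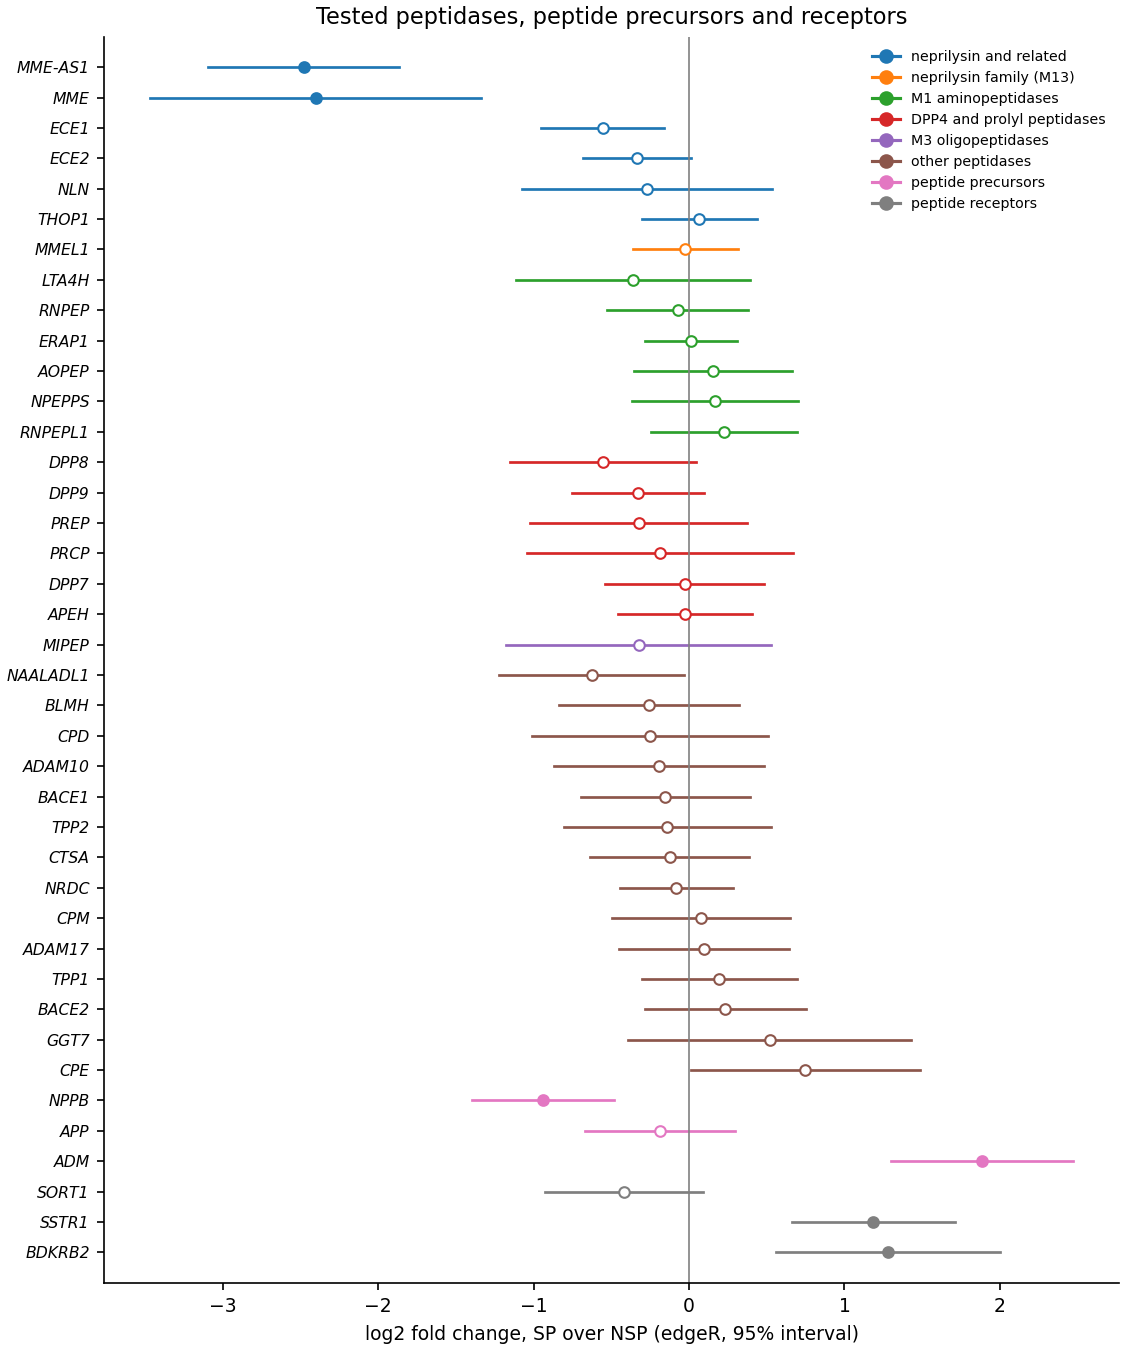
Log2 fold change of SP over NSP (horizontal axis, with 95% intervals) for the tested members, other peptidases, peptide precursors and peptide receptors, coloured by list and filled where called. MME and MME-AS1 stand below -2, the other peptidases lie between -0.63 and 0.75, and ADM, SSTR1 and BDKRB2 stand above 1.

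Few precursors of the peptides cut by these enzymes, and few receptors of those peptides, had enough counts. Of 34 peptide precursors 18 had at least 1 count and 3 were tested, and of 37 receptors 28 had at least 1 count and 3 were tested. Over both lists and the peptidases, members left out, 34 genes were tested. Of these 3 were called higher in SP cells, where 1.63% of all tested genes were, and 1 was called lower, where 2.03% were. With the replicate block the same numbers were called, where 5.89% of all tested genes were called higher and 7.00% lower.

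ADM, the precursor of the vasodilator adrenomedullin, rose in SP cells. It had 370, 233, 209 and 174 CPM in SP replicates 1 to 4 and 83.5, 80.5, 70.8 and 30.4 CPM in NSP replicates 1 to 4. Every SP library was above every NSP library, at a log2 fold change of 1.88 (standard error 0.28) and an adjusted p of 0.00173 by edgeR's quasi-likelihood test. NPPB, the precursor of B-type natriuretic peptide, fell. It had 46.8, 32.8, 39.0 and 36.1 CPM in SP replicates 1 to 4 and 61.2, 63.2, 110 and 63.6 CPM in NSP replicates 1 to 4, with NSP replicate 3 far above the others of its group. It gave a log2 fold change of -0.94 (standard error 0.22) and an adjusted p of 0.0235 by the same edgeR test. The call was lost without SP replicate 2 (-0.87), SP replicate 4 (-0.92) or NSP replicate 3 (-0.70). APP, the precursor of amyloid beta, which neprilysin degrades, was at 189 ± 64.1 CPM (SP) and 214 ± 49.6 CPM (NSP; SD, n = 4), with a log2 fold change of -0.18 (standard error 0.23).

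SSTR1, a somatostatin receptor, rose in SP cells. It had 36.7, 69.7, 74.7 and 43.4 CPM in SP replicates 1 to 4 and 18.1, 24.7, 28.7 and 28.3 CPM in NSP replicates 1 to 4. The groups did not overlap, at a log2 fold change of 1.19 (standard error 0.25) and an adjusted p of 0.0142 by edgeR's quasi-likelihood test. It was not called without SP replicate 2 (1.07) or NSP replicate 2 (1.18). BDKRB2, the bradykinin B2 receptor, had 20, 13, 15 and 14 counts in SP replicates 1 to 4 and 6, 10, 5 and 8 counts in NSP replicates 1 to 4. All SP libraries lay above the NSP libraries in CPM, at a log2 fold change of 1.28 (standard error 0.34) and an adjusted p of 0.0477 by the same edgeR test. That call was lost in each fit that left out a library, at log2 fold changes of 1.09 to 1.40. SORT1, a neurotensin receptor, had a log2 fold change of -0.42 (standard error 0.24). None of ADM, NPPB, SSTR1 and BDKRB2 has an annotated exon across its own on the other strand. That does not show from which strand their reads came, which was not tested. Their levels and differences therefore carry the same limit as those of the other genes.

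**Figure D5:**
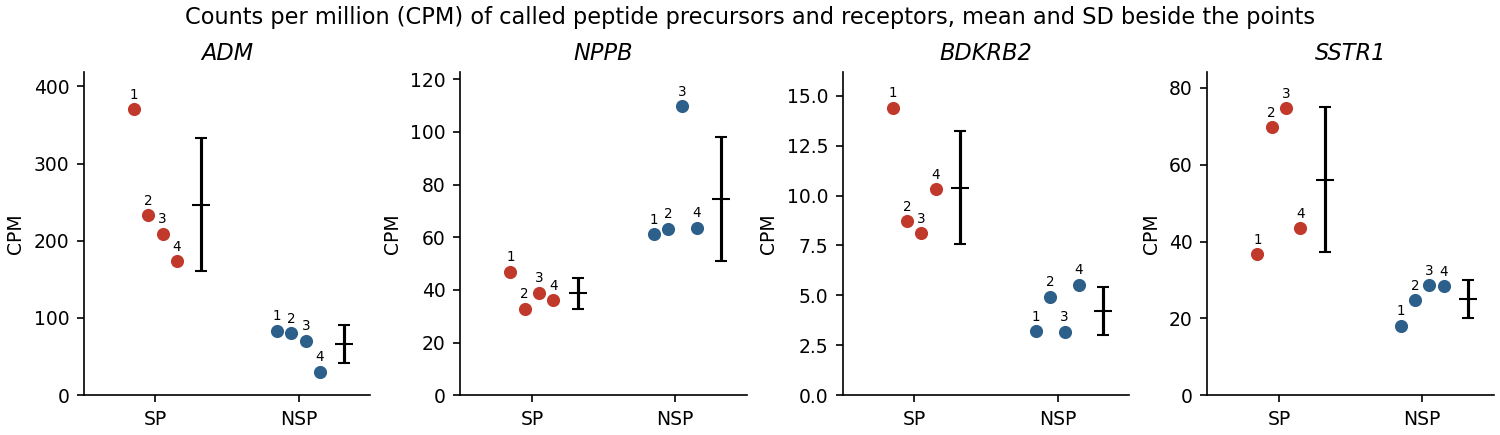
Level in CPM (vertical axis from 0) of ADM, NPPB, BDKRB2 and SSTR1 in the SP (red) and NSP (blue) libraries, with replicate numbers above the points and the mean and SD (n = 4) beside them. The groups of each gene do not overlap, with NPPB the one lower in SP cells.

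Within 1 Mb of MME, 38 genes have a row in the table, 16 of these had at least 1 count, and 5 besides MME and MME-AS1 were tested. None of the 5 was called by edgeR's quasi-likelihood test, with 0 at an unadjusted p under 0.05, and 0 were called by DESeq2, limma voom or with the replicate block. The nearest on the right, SLC33A1, an acetyl-CoA transporter gene 637 kb away, had a log2 fold change of 0.24 (standard error 0.35). GMPS, a gene of GMP synthesis, had 0.19 (standard error 0.23), the pseudogene SETP14 -0.37 (standard error 0.32) and the potassium channel subunit gene KCNAB1 -0.64 (standard error 0.43). On the left, the helicase gene DHX36, 700 kb away, had a log2 fold change of 0.49 (standard error 0.28).

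Across the 8 libraries the levels of MME and MME-AS1 moved together, with a Pearson correlation of log2(CPM + 1) of 0.931, and of 0.731 after the group means were taken away. As these points share library depth and the group difference, the values are a description. For MME the 5 most similar tested genes were S1PR3, LCP1, PICALM, ITPK1 and PPP4C (correlations 0.982 to 0.966 over 8 libraries), and MME-AS1 ranked 26. For MME-AS1 they were the lncRNA ENSG00000255201, HPCA, TSPAN7, the lncRNA ENSG00000267125 and PODXL (0.996 to 0.978), and MME ranked 47. Of these 10 genes S1PR3 (log2 fold change -1.53), ENSG00000255201 (-1.43), ENSG00000267125 (-0.77) and PODXL (-2.16) were called lower in SP cells. None of the 5 for MME is among the 5 for MME-AS1.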

How the data were processed

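RNA-seq libraries of sorted SP and NSP cells of J82 (4 each) were analysed. Per the labels and methods, STAR placed the reads on hg19 and featureCounts summed them over gencode genes. The authors deposited these sums as raw counts per gene, so that a count carries the depth of its library. Tool versions, the strand setting and the handling of reads matching several genes are not given in the sources used here, and reads shared by close relatives may be lost. Columns were assigned to groups by the library titles.

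Symbols and GRCh37 positions were joined by unversioned gene identifier from a GENCODE annotation mapped to GRCh37 (55538 of 57820 genes found). The main test was the quasi-likelihood test of edgeR 4.0.16 under R 4.3.3, with TMM scaling and no covariate. Low genes were left out by filterByExpr (min.count 10, min.total.count 15). A call needed a fold change over 1.3 and an adjusted p (Benjamini-Hochberg over all tested genes) under 0.05. CPM used TMM-normalized library sizes. Standard errors are the log2 fold change over the square root of F, and 95% intervals use the degrees of freedom of the fit. DESeq2 1.42.0 and limma 3.58.1 served as alternatives, with Python 3.11.15 and scipy 1.17.1 for intervals. The fitting code was tested on simulated data.

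Same-numbered SP and NSP libraries deviated together (correlations 0.203 to 0.380 over 4 numbers), so their values are also given as numbered pairs. An alternative fit held a replicate block, whereas the main fit left the pairing out. Replicates differed by more than sampling noise (chi-square per degree of freedom 4.87 to 11.0). Other alternatives were further normalizations, filters, testing for changes beyond 1.3-fold, omission of each library, and adding opposite-strand counts. Members and lists were chosen with earlier results of these data known. Named genes are the members, called list genes, the ends and the best counted gene of each list, genes with exons across those of members, tested genes within 1 Mb of MME and the 5 most correlated with MME and with MME-AS1. Markers, genes at 0 counts and those in the last section were named after their values were seen. Sequences came from the GRCh37 genome and, for promoters, from RefSeq. The FOXC1 knockout and ChIP-seq data were not analysed here.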

Additional observations from a re-analysis of the deposited data

Results flagged for a closer look

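A single library stood apart in 3 of the 27 sets of 4 values examined, and about 1.4 such sets (1 in 20) arise by chance. For MME in SP cells it was SP replicate 1, with 8.65 CPM against 0.736 to 1.62 CPM in the others, a gap of 0.888 of the range. For NPPB in NSP cells it was NSP replicate 3, with 110 CPM against 61.2 to 63.6 CPM, a gap of 0.950 of the range. For ANPEP in NSP cells it was NSP replicate 1, whose single count stands against 0 in the others, a gap of 1 times the range that follows from having 1 count in all. It is therefore no sign of a library that stands apart, and leaves 2 such sets.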

How the results depend on the processing

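ADM, KRT7 and FN1 kept their direction and call in each alternative run. ECE2, THOP1 and NLN were called in none. MME was not called without SP replicate 2, and nothing is read from the calls of MME and MME-AS1, which were selected on this contrast. With the replicate block, 548 genes were called higher and 652 lower, and ECE1 was added to the members called and VIM, SPARC, TWIST1 and CD14 to the markers called, with no other call changed among the members and the genes called in the peptide lists. Without a filter on low counts, 303 genes were called higher and 381 lower, among them 4 related list genes higher and 2 lower. A test against a fold change of 1.3 called 51 genes higher and 67 lower, with 1 related list gene higher and 0 lower. With at least 10 counts in every library, MME was not tested and 1 member was called lower. With opposite-strand counts added, MME and MME-AS1 are 1 gene and 1 member was called lower. With single libraries left out, 69 to 164 genes were called higher and 89 to 181 lower, both lowest without NSP replicate 2. The members called lower were 1 to 2, the related list genes 1 to 3 higher and 0 to 1 lower, and the log2 fold change of THOP1 ran from -0.0514 to 0.16, below 0 without SP replicate 3 or NSP replicate 4. BDKRB2 was not called by DESeq2 (1.28), limma voom (1.19) or without a filter (1.26). Causes of these changes were not tested. Counts of 1 to 12 per SP library limit the fold change of MME, and ANPEP and DPP4 did not pass the filter.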

Other observations

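Some genes of the peptide lists had too few counts for the test and are given here as values chosen after they were seen. NPR3, the clearance receptor of natriuretic peptides, had 33 counts in the SP and 8 in the NSP libraries, with 5 to 13 against 0 to 4 per library. VIPR2, a receptor of vasoactive intestinal peptide, had 47 and 15, with overlapping groups of 5 to 16 and 1 to 8. RAMP2, a partner of the adrenomedullin receptor, had 1 and 20, of which the NSP libraries held 2 to 8 each. These 3 genes passed the calling threshold when the filter on low counts was dropped. Exons of VIPR2 and RAMP2 cross exons on the other strand, by 2021 bp and 379 bp. EDN1, the precursor of endothelin-1 that ECE1 processes, was at 8.24 ± 3.89 CPM (SP) and 4.75 ± 0.52 CPM (NSP; SD, n = 4), and its groups overlapped, with SP replicate 1 below every NSP library.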
